A study of Homo sapiens with 6 samples.

Results

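The 10 genes described here belong to the insulin-like growth factor (IGF) system: the binding proteins IGFBP2, IGFBP3, IGFBP4, IGFBP5, IGFBP6 and IGFBP7, the ligand IGF2, the receptors IGF1R and IGF2R, and the adaptor IRS1. They were chosen by gene symbol in the platform's annotation, which gave 1 probe set for each, so 10 of 21448 probe sets and 10 of 17687 named genes. The set was proposed with earlier results of the same arrays known, those of IGFBP3 among them, so the differences between the groups are given as a description and support nothing by themselves. The cells were HS578T, a mesenchymal-type line from a human breast carcinoma. The EP300 group was stably transfected with the plasmid pcDNA 3 carrying a cDNA of EP300, a lysine acetyltransferase and transcriptional co-activator, and the control group with pcDNA 3 alone. Both groups were G418-selected pools of at least 200 clones, and both grew in low-glucose DMEM with fetal calf serum, glutamine, insulin and G418. Each group had 3 cultures with 1 array each. Whether the cultures of a group came from 1 pool is not stated, so the spread between arrays may not include a spread between transfections.

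In the IGF system, secreted IGF ligands bind IGF1R, a receptor tyrosine kinase that signals through adaptors such as IRS1 to the PI3K-AKT and RAS-ERK pathways. IGF2R carries no kinase, and takes IGF2 and mannose 6-phosphate-tagged lysosomal enzymes into the cell. The binding proteins hold IGFs in the extracellular fluid, prolong their life and limit or deliver them to receptors, and proteases cut the binding proteins and release the ligand. In breast cells IGFBP3 also has actions that do not need IGF binding, and its transcription responds to p53, TGF-beta and other signals.

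The largest difference in the family was in IGFBP3, which was lower in EP300 cultures by 1.28 on the log2 scale. IRS1 was also lower, by 0.54, and on no array of the EP300 group did either gene reach the lowest control array. IGFBP2 and IGFBP6 were higher in EP300 cultures, by 0.42 and 0.53, and their groups did not overlap either. The remaining 6 genes (IGFBP4, IGFBP5, IGFBP7, IGF2, IGF1R and IGF2R) differed by 0.14 or less in size, with overlapping groups. Across all 21448 probe sets the linear model of limma called 0 (0%) at an adjusted p of 0.05, so no member passed, and the lowest adjusted p among the 10 was 0.436, for IGFBP3. At an unadjusted limma p below 0.05 there were 2 members, both lower (IGFBP3 and IRS1), where 6.52% of all probe sets were counted, 3.45% as higher and 3.07% as lower. The groups did not overlap for 4 of the 10 members, 2 higher and 2 lower, while this was so for 12.2% of all probe sets, 6.3% with EP300 higher and 5.91% with EP300 lower. Since the contrast was known when the members were proposed, nothing is read from these counts. The median difference of the 10 was -0.09, against 0.001 over all probe sets, and the median size of the difference was 0.13, against 0.20.

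The promoters of the 4 genes whose groups did not overlap are shown because these are the members in which the groups stood apart. Each is the 250 bases before the annotated transcript start in RefSeq (GRCh38.p14), printed 5′ to 3′ on the gene's strand. Capitals mark GGGCGG, the GC box that binds SP1-family factors, on either strand (CCGCCC where it lies on the other strand). The first lies at chr7:45921273-45921522 (minus strand), the second at chr2:226799821-226800070 (minus strand), the third at chr2:216632578-216632827 (plus strand) and the fourth at chr12:53097417-53097666 (plus strand).
IGFBP3: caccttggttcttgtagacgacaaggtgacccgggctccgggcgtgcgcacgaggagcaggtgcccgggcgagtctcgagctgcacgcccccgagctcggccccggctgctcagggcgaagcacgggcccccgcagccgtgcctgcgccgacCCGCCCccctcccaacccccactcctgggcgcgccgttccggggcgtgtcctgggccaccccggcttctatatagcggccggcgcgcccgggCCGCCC
IRS1: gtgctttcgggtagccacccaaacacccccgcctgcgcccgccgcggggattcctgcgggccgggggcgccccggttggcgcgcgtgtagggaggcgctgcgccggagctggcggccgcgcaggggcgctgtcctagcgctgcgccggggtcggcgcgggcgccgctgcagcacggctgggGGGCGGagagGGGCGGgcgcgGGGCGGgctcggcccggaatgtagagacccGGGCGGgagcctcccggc
IGFBP2: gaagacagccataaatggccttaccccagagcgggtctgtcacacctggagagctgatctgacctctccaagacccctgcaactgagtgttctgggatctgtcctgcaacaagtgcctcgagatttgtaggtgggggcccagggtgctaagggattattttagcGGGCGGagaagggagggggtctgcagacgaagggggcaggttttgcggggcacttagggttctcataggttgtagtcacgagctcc
IGFBP6: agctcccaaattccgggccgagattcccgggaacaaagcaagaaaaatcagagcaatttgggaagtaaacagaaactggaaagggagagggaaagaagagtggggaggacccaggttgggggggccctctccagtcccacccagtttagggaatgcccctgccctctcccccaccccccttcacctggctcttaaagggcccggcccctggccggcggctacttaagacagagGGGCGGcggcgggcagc

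The 2 promoters of the genes that were lower in EP300 cultures were rich in G and C, with 76.0% for IGFBP3 and 80.8% for IRS1, above 88.8% and 96.5% of 15843 promoters of protein-coding genes. Those of the genes that were higher, IGFBP2 and IGFBP6, held 56.8% and 61.2%, below the median promoter at 62.4%. CpG dinucleotides occurred at 0.90 and 0.98 of the number expected from base content in IGFBP3 and IRS1, and at 0.36 and 0.38 in IGFBP2 and IGFBP6. Members whose groups overlapped were of both kinds, with 1.18 for IGF1R, 0.85 for IGF2R, 0.76 for IGFBP4 and 0.34 for IGFBP5, so over these 8 promoters the direction of a difference and the base content are only set side by side. The GC box occurred 2 times in IGFBP3, 4 times in IRS1 and 1 time each in IGFBP2 and IGFBP6, and 56.0% of all promoters held at least 1. The exact letters TATAAA of the TATA box (in 9.23% of all promoters) were matched in IGFBP4 alone of the 8, and the E-box CACGTG (7.84%) in IGF2R alone, 3 times. Variants of these letters, such as the tatata in the IGFBP3 window, were not sought. No match was found in the 8 for CCAAT (34.5%), the cyclic AMP element TGACGTCA (2.32%) or the AP-1 element TGANTCA (5.04%), each sought on both strands, which says only that these letters are not in the window. Promoters of IGFBP7 and IGF2 are not shown.

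IGFBP3, the main carrier of IGFs in serum, read 13.27, 13.41 and 13.24 on the EP300 arrays (replicates 1 to 3), against 14.26, 14.64 and 14.84 on the control arrays. The EP300 arrays spanned 0.17 log2 units and all lay below the lowest control array, while the control arrays spanned 0.59. The means were 13.30 ± 0.09 in EP300 and 14.58 ± 0.30 in control cultures (log2, SD, n = 3 each), a 2.42-fold difference (log2 -1.28 ± 0.23 SE, 95% interval -1.78 to -0.77). Its signal lay above that of 98.8% of probe sets (a rank of signals, since probes respond unequally), and its difference was larger in size than that of 99.9% of probe sets. With any 1 array left out the difference stayed between -1.44 and -1.14. When limma was run with robust estimation and a trend in the variance, 4 probe sets (0.0186%) passed, and IGFBP3 was 1 of them (adjusted p = 0.034). Over the alternative settings its limma adjusted p ran from that value to 0.866. The mean level of 8 markers of the mesenchymal state was 13.82 to 13.95 on EP300 arrays and 14.14 to 14.18 on control arrays. None of the 8 passed in limma (lowest adjusted p = 0.735). At an unadjusted limma p below 0.05 there were 2 of the 8, both lower (25%, against 6.52% of all probe sets, 3.07% as lower). The groups did not overlap for 5 of them, all with EP300 lower (5.91% of all probe sets), while ZEB1 and TWIST1 overlapped, TWIST1 with a difference of 0.08, and VIM had the same value on all arrays. SPARC, 1 of the 5, read 19.91, 19.93 and 19.93 on the control arrays, at or near the ceiling of 19.93, and differed by -0.16. Of 8 luminal epithelial markers 4 were higher and 4 lower, with a median difference of -0.007. The only 1 of them without overlap was MUC1 (12.5%, against 12.2% of all probe sets), which differed by -0.93. The part of the marker genes in the IGFBP3 difference was not tested.

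IGFBP2, which is made by many epithelial and tumour cells and binds IGF2 with preference, read 4.56, 4.77 and 4.55 on the EP300 arrays and 4.22, 4.07 and 4.33 on the control arrays. The lowest EP300 array was above the highest control array, by a margin of the same order as the spread inside each group. The difference was 0.42 ± 0.20 SE on the log2 scale (95% interval -0.04 to 0.88). IGFBP6, a binding protein with a strong preference for IGF2, read 4.38, 4.83 and 4.06 on the EP300 arrays and 3.80, 3.98 and 3.89 on the control arrays. EP300 replicate 3 was close to the highest control array and EP300 replicate 2 stood well above it, and without replicate 2 the difference of 0.53 ± 0.24 SE (-0.01 to 1.08) shrank to 0.33. The control means of both genes lay below the array medians (4.456 to 4.497), and without a known background no fold is stated for them.

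IGFBP4, which in most tissues restrains IGF action and is cut by the protease PAPPA, averaged 4.86 ± 0.15 in EP300 and 4.87 ± 0.22 in control cultures (log2, SD, n = 3 each). That is a difference of -0.01 (95% interval -0.50 to 0.47), and leaving out single arrays moved it between -0.11 (without control replicate 1) and 0.11 (without control replicate 3). IGFBP5, a matrix-bound binding protein, read 2.90, 2.79 and 3.18 on the EP300 arrays and 3.54, 3.13 and 2.62 on the control arrays. The control arrays spanned more than the EP300 arrays and enclosed them, and both means were under the array lower quartiles (3.468 to 3.495). IGFBP5 is thus at the low end of the signal, and its difference of -0.14 turned to 0.08 without control replicate 1. IGFBP7, a related secreted protein that binds IGFs only weakly and lies in the matrix, was at the other end, with 18.53, 18.56 and 18.55 on the EP300 arrays and 18.56, 18.66 and 18.63 on the control arrays. Its signal was above that of 99.8% of probe sets and near the ceiling of the deposited values (19.93), and the difference was -0.07 (95% interval -0.51 to 0.36).

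**Figure D1:**
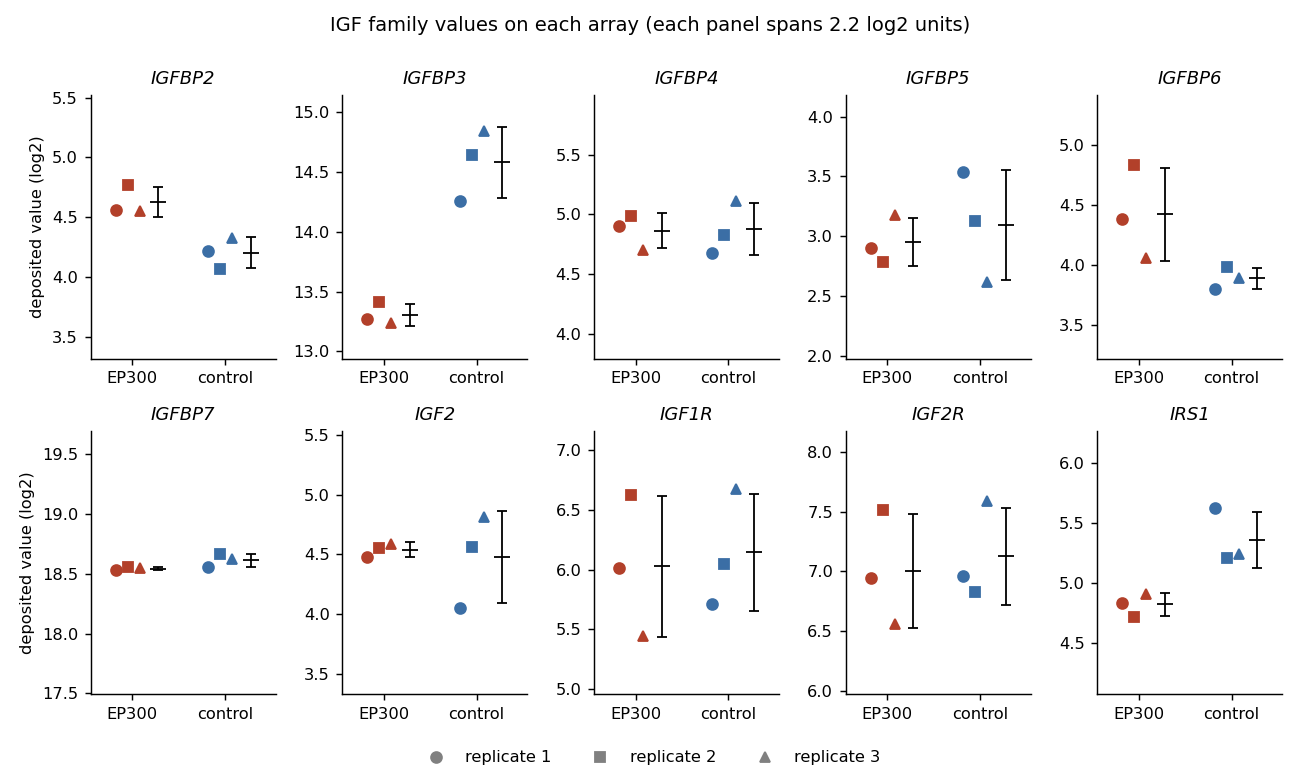
Deposited log2 value of each of the 10 genes (vertical axes, each spanning the same range) on the EP300 arrays (red, left) and the control arrays (blue, right). Marker shapes are replicates 1 to 3, and the bar beside each group is the mean ± SD (n = 3). IGFBP3 and IRS1 lie lower and IGFBP2 and IGFBP6 higher on all EP300 arrays, and the other 6 genes overlap.

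The ligand gene IGF2 read 4.47, 4.56 and 4.59 on the EP300 arrays and 4.06, 4.56 and 4.81 on the control arrays. The EP300 arrays lay inside the range of the controls, and the difference was 0.06 ± 0.24 SE (95% interval -0.48 to 0.61). It turned to -0.15 without control replicate 1. IGF2 lies beside INS, and the readthrough transcript of both was not analysed here.

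IGF1R read 6.01, 6.62 and 5.45 on the EP300 arrays and 5.71, 6.05 and 6.67 on the control arrays. IGF2R read 6.94, 7.51 and 6.56 on the EP300 arrays and 6.96, 6.83 and 7.59 on the control arrays. In both receptors control replicate 3 and EP300 replicate 2 were the highest arrays and EP300 replicate 3 the lowest, so the 2 genes shared an array pattern that crossed the groups. The means were 6.03 ± 0.59 in EP300 and 6.14 ± 0.49 in control cultures for IGF1R, and 7.01 ± 0.48 in EP300 and 7.13 ± 0.41 in control cultures for IGF2R (log2, SD, n = 3 each). The 95% interval of the difference was -0.89 to 0.65 for IGF1R and -0.80 to 0.56 for IGF2R, so with 3 arrays a group a difference anywhere within these bounds is possible. The spread within groups was larger for IGF1R than for 90.8% of probe sets (pooled SD 0.54), and for IGF2R than for 79.0% (0.44). Without EP300 replicate 2 the differences were -0.41 and -0.37, without EP300 replicate 3 they were 0.17 and 0.10, and without control replicate 3 they were 0.15 and 0.11, so the direction rested on single arrays. The first principal component of all probe sets, with 23.1% of the variance, put the groups apart. Its scores were -6.9, -27 and -31.3 on the EP300 arrays and 33, 18.6 and 13.5 on the control arrays. The second, with 20.9%, had EP300 replicate 2 at one end (-41.3) and EP300 replicate 3 at the other (35.2). The scores of the remaining arrays ran from -6.17 (control replicate 3) to 7.52. The part of the second component in the receptor pattern was not tested.

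IRS1, the adaptor that links IGF1R and the insulin receptor to PI3K, read 4.84, 4.72 and 4.91 on the EP300 arrays and 5.63, 5.21 and 5.24 on the control arrays. The EP300 arrays were close together and below all controls, of which replicate 1 was the highest. The means were 4.82 ± 0.10 in EP300 and 5.36 ± 0.23 in control cultures (log2, SD, n = 3 each), a 1.45-fold difference (log2 -0.54 ± 0.22 SE, 95% interval -1.02 to -0.05, limma adjusted p = 0.748). Without control replicate 1 the difference was -0.40.

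**Figure D2:**
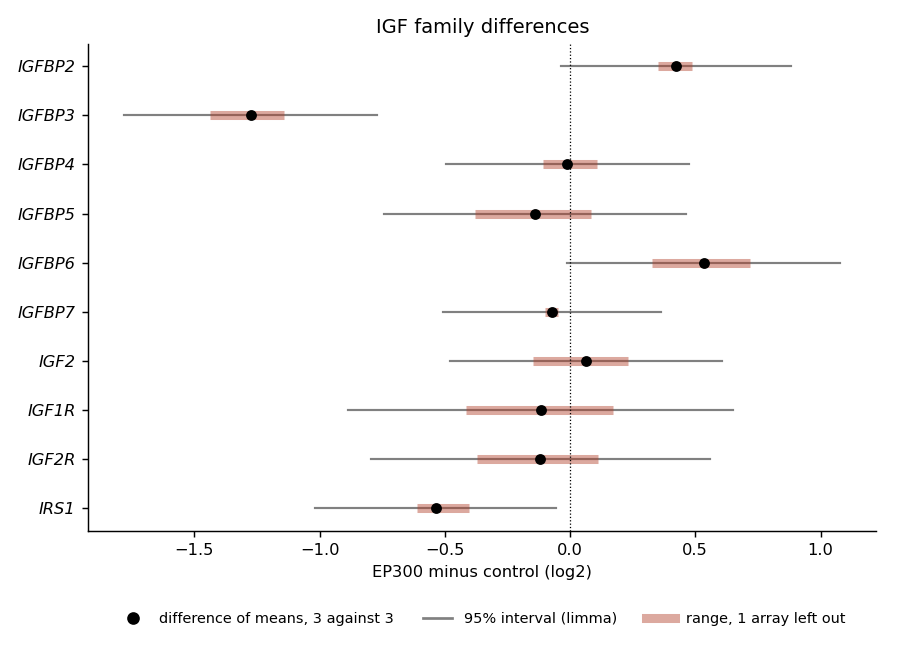
Difference between the EP300 and control means of each gene (dots, log2, horizontal axis) with limma's 95% interval (grey lines) and the range of the difference when 1 array was left out (red bars). IGFBP3 and IRS1 have intervals below 0, those of IGFBP2 and IGFBP6 reach just past 0, and the ranges of IGFBP4, IGFBP5, IGF2, IGF1R and IGF2R cross 0.

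A further 76 genes of the pathway were listed by role, of which 67 were measured, and the others were not analysed here. By limma 0 of the 67 passed an adjusted p of 0.05 (the lowest was 0.735), 32 were higher and 35 lower in EP300 cultures, and the median difference was -0.06, against 0.001 over all probe sets. At an unadjusted p below 0.05 there were 5 higher and 3 lower (11.9%, against 6.52% of all probe sets). The groups did not overlap for 8 higher and 7 lower genes (22.4%, against 12.2%). In each role the 2 genes with the smallest p are named below.

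Among secreted partners, 3 were measured and the groups of all 3 overlapped. IGFALS, the acid-labile subunit that joins IGFBP3 and IGF in the serum complex, differed by -0.74 ± 0.36 SE, -0.43 without control replicate 1 and -1.16 without control replicate 3. Its means, 3.20 in EP300 and 3.94 in control cultures, lay below the array medians, and the EP300 mean was under the array lower quartiles. IGFBP1, the insulin-controlled binding protein, differed by -0.31 ± 0.23, and by -0.15 without control replicate 2. Of 5 receptors and sorting receptors, INSR, the insulin receptor, read 4.50, 3.95 and 3.64 on the EP300 arrays and 3.50, 3.57 and 3.12 on the control arrays. Of the 5, INSR alone had groups without overlap (20%, against 12.2% of all probe sets). Its difference was 0.64 ± 0.27 (0.40 without EP300 replicate 1). However, both means lay below the array medians, and the control mean (3.395) was under the array lower quartiles. LRP1, an endocytic receptor that binds IGFBP3, differed by -0.32 ± 0.27, by -0.08 without EP300 replicate 1 and by -0.57 without EP300 replicate 2.

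Secreted proteins with an IGFBP-like domain had 7 of 10 genes lower, with a median of -0.25, and 3 did not overlap, all lower (30%, against 5.91% of all probe sets with EP300 lower and 12.2% either way). Among these 3, KAZALD1, chosen after its values were seen, had means of 2.47 in EP300 and 2.76 in control cultures. Both lay under the array lower quartiles, where the background is unknown. ESM1, an endothelial cell proteoglycan (endocan), read 4.97, 4.78 and 4.53 on the EP300 arrays and 5.83, 5.40 and 5.71 on the control arrays. It lay lower on each EP300 array than on any control array, by 1.85-fold in the means (log2 -0.89 ± 0.23 SE, limma adjusted p = 0.735). CCN2, the matricellular protein also called connective tissue growth factor, was lower by 1.42-fold (-0.50 ± 0.22). Its sister gene CCN1, chosen after its values were seen, differed by 0.19 with overlapping groups.

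Proteases that cut binding proteins, with their inhibitors, were split, with 6 of 12 genes higher and a median of 0.03. The groups did not overlap for 1 higher and 2 lower genes (25%, against 12.2% of all probe sets, 6.3% higher and 5.91% lower). MMP2, the gelatinase A gene, read 11.03, 10.67 and 10.66 on the EP300 arrays and 10.29, 9.68 and 9.88 on the control arrays. All EP300 arrays were higher, by 1.79-fold in the means (log2 0.84 ± 0.24 SE, limma adjusted p = 0.735). ADAM12, a metalloprotease that cuts IGFBP3 and IGFBP5, was lower by 1.38-fold (-0.46 ± 0.21), also without overlap.

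Adaptors and attenuators of receptor signalling were split evenly (8 higher and 8 lower of 16), with a median of -0.03. GRB14, an adaptor that restrains the insulin receptor, differed by 0.52 ± 0.30 SE (0.27 without control replicate 3). SOCS1, a cytokine signalling suppressor, differed by -0.33 ± 0.20. It alone of the 16 had groups without overlap (6.25%, against 12.2% of all probe sets). The means of GRB14 and SOCS1 were under the array lower quartiles. In the PI3K, AKT, mTOR and FOXO list, 9 of 18 were higher, and 5 genes did not overlap, 4 higher and 1 lower (27.8%, against 12.2% of all probe sets, 6.3% higher and 5.91% lower). PIK3R1, the regulatory subunit of PI3K that docks on IRS1, read 7.30, 7.44 and 7.38 on the EP300 arrays and 6.49, 6.98 and 6.05 on the control arrays. The EP300 arrays were tightly grouped above all controls, 1.82-fold in the means (log2 0.86 ± 0.26 SE, limma adjusted p = 0.735). EIF4EBP1, the translation repressor that mTOR switches off, read 12.19, 12.08 and 11.77 on the EP300 arrays and 12.91, 12.52 and 12.67 on the control arrays. It was lower on all EP300 arrays, 1.61-fold in the means (-0.69 ± 0.22, limma adjusted p = 0.738). Of the 3 measured genes for proteins that bind IGF2 mRNA, 2 were higher and 1 lower. IGF2BP3 differed by 0.53 ± 0.22 and IGF2BP2 by 0.46 ± 0.23 (0.30 without control replicate 1), both without overlap (12.2% of all probe sets), and IGF2BP1, chosen after its values were seen, by -0.26 with overlapping groups. IGF2BP3 lay near or below the lower quartile of the arrays.

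**Figure D3:**
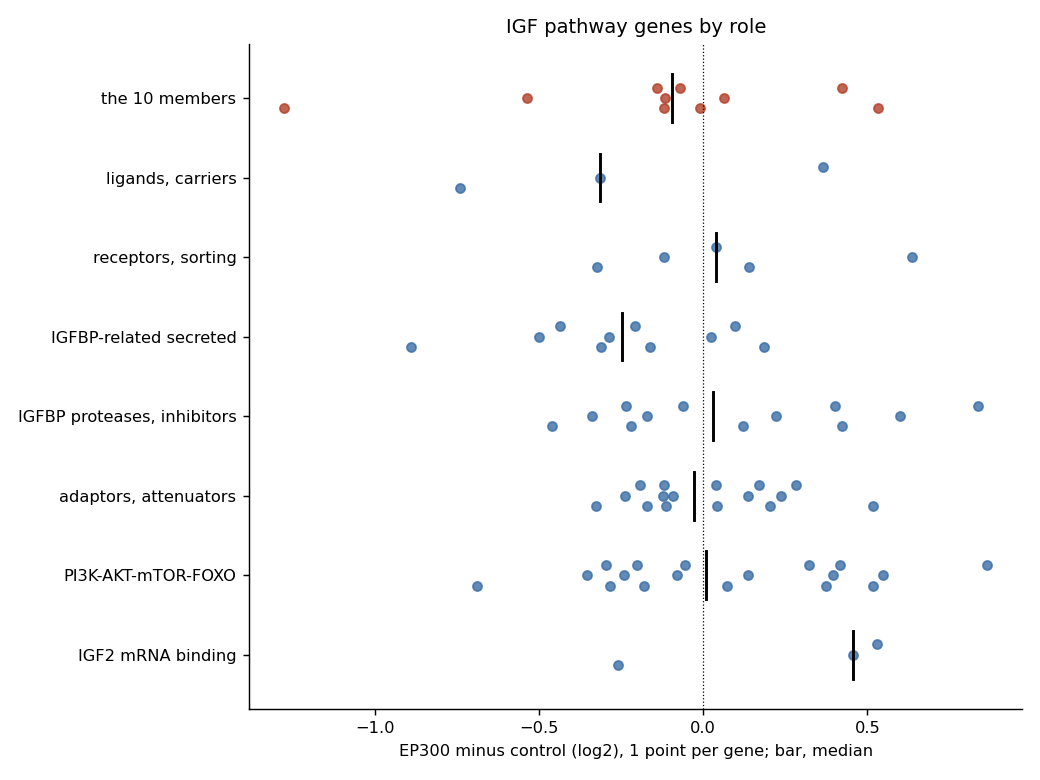
Difference between EP300 and control means (log2, horizontal axis) of each measured gene, by role (rows), with the median of each list as a bar. IGFBP3 at -1.28 lies further from 0 than any of the 67 other pathway genes, which run from -0.89 to 0.86.

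Among all named genes, those whose values over the 6 arrays were most like IGFBP3 were sought by the root mean square of the difference between array deviations, each taken from the gene's own mean. The nearest 5 were SESN3 (0.198 log2 units), SCD (0.210), TP53INP1 (0.219), MUC1 (0.223) and CLVS1 (0.229), where the median gene was at 0.721. They encode a stress-induced sestrin, stearoyl-CoA desaturase, a stress-induced nuclear protein, a membrane mucin and a clathrin-coat associated lipid binder. Each was lower on all EP300 arrays, which the measure itself favours, with differences from -1.13 (SCD and TP53INP1) to -0.93 (MUC1), and SCD also passed with the variance trend (limma adjusted p = 0.0435). Of these 5 genes, SESN3 and CLVS1 had low signals. Their means were 3.00 and 2.62 in EP300 cultures, under the array lower quartiles, and 3.94 and 3.71 in control cultures, below the array medians. The EP300 mean of TP53INP1 (4.22) was also below the medians, and the background of such values is unknown. The nearest member of the IGF family was IRS1, at 0.488, outside the closest 1% of genes (0.391). With 6 arrays and 17687 genes, close likeness of this kind is a description of these arrays only.

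**Figure D4:**
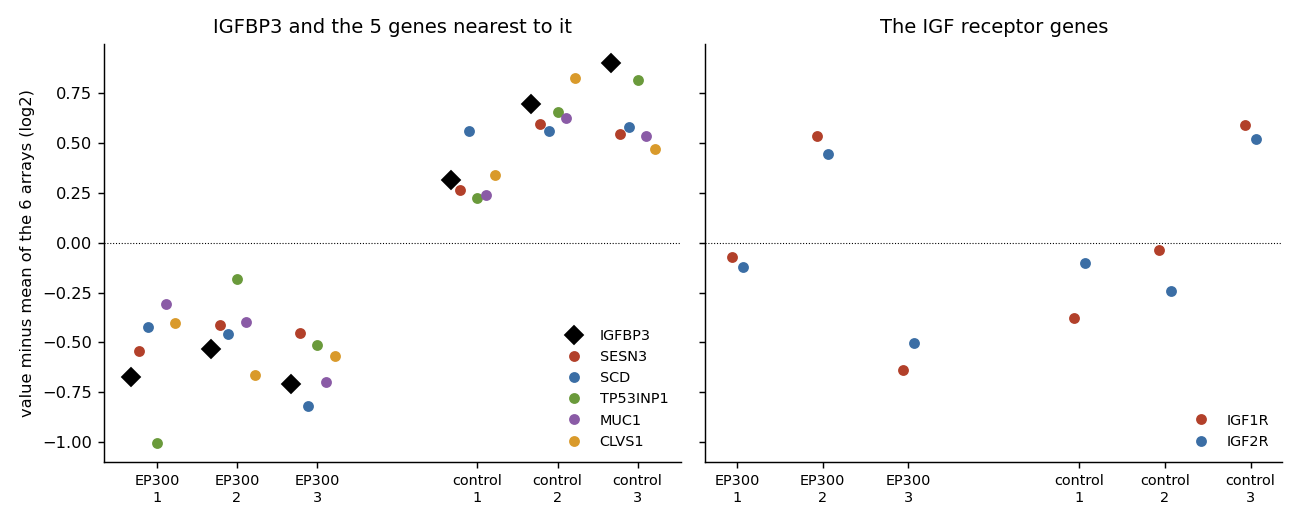
Value on each array minus the gene's mean over the 6 arrays (log2, vertical axis), for IGFBP3 (black diamonds) with the 5 genes nearest to it (left panel) and for IGF1R and IGF2R (right panel). In the left panel the EP300 arrays lie below 0 and the control arrays above, and in the right panel EP300 replicate 2 and control replicate 3 are high and EP300 replicate 3 is low for both receptors.

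The 6 arrays were alike, with medians from 4.456 to 4.497 and correlations over all probe sets of 0.9784 to 0.9802 within EP300, 0.9786 to 0.9807 within control and 0.977 to 0.9807 between the groups. The level of EP300 itself was not analysed here. Of 8 mesenchymal markers 7 lay above the array medians, with VIM at 18.60 on every array. Of 8 luminal epithelial markers 4 did. These were KRT8 (7.33 in EP300 and 6.96 in control cultures), MUC1 (4.57 and 5.51), ESR1 (4.61 and 4.97) and GATA3 (4.84 and 4.68). CDH1, EPCAM, KRT19 and CLDN4 did not. The means of CDH1 and EPCAM were 3.25 and 3.35 in EP300 and 2.54 and 3.60 in control cultures. The median levels of 5 leukocyte and 5 endothelial markers were 3.995 and 2.996, below the array medians, but 2 leukocyte markers (CD68 at 6.74 in EP300 and 6.70 in control cultures, CD3E at 4.58 in EP300 and 4.76 in control cultures) and 1 endothelial marker (VWF at 4.88 in both) lay above them.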

How the data were processed

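Total RNA of 6 cultures was hybridised to 1 Affymetrix whole-transcript array each, after Qiagen RNeasy extraction and GeneChip WT PLUS labelling, per the labels. The authors' deposited table holds 1 value per probe set and array, taken as log2 from their range, with a ceiling at 19.93. Per the submitters' processing notes Partek 6.6 was used. How values were normalized and summarised, and the build, is not given in the sources used here, and the table has no detection calls, so the background of low values is unknown. The number of arrays limits the precision.

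Differences are EP300 minus control, 3 against 3, fitted in R 4.3.3 with limma 3.58.1 (lmFit, eBayes) on all 21448 probe sets, without filter, covariate or block. Benjamini-Hochberg adjustment ran over all of them, with a threshold of 0.05. Errors of groups are SD, those of differences limma's standard errors or 95% intervals. The fit was also run on simulated data, and no result here rests on that run. Genes are named from the platform's annotation (17709 probe sets with 1 symbol, 0 with several, 3739 without). RefSeq (GRCh38.p14) gave promoters for 8 of the 10 members.

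The members and lists were chosen with earlier results of these data known. Genes named are all members, the 2 genes with the smallest p of each pathway list, the 5 most like IGFBP3, and any said to be chosen later. Same-numbered replicates were checked for pairing: their deviations from the group means correlated at -0.002, -0.005 and -0.009, so the numbers were not taken as pairs.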

Additional observations from a re-analysis of the deposited data

How the results depend on the processing

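The differences were recomputed under 14 alternative settings, and the 3 fitted counts (all probe sets, members, pathway genes) at an adjusted limma p of 0.05 were 0 in each, except with the variance trend and robust estimation, which gave 4 probe sets in all, 1 of them a member (IGFBP3) and 0 of them a pathway gene. The cause was not tested. With the replicate number as a block (replicate block) the 3 counts were 0 as well, with 1295 probe sets and 2 members at an unadjusted p below 0.05. The variance trend counted 1455 probe sets and 1 member at that unadjusted level. IGFBP2, IGFBP3, IGFBP6, IGFBP7 and IRS1 kept their direction in every setting that held them. The other 5 members turned with 1 array left out, and IGFBP4 also under quantile normalization, to 0.000. Quantile normalization and median centring left 4 members without overlap (12% of all probe sets in both), and leaving out 1 array gave 4 to 5, where the share of all probe sets was itself larger, 21.6% to 23.1%. These settings were chosen after seeing the data. Among probe sets above the median level 7 members were left. Values near or below the array medians have no known background, which limits what IGFBP2, IGFBP5, IGFBP6 and IGF2 can show. IGFBP7 lay near the ceiling (19.93), at a level where VIM read the same on all arrays (18.60). A difference may not show there.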

Other observations

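In the order of protein-coding genes in RefSeq (GRCh38.p14), several binding protein genes lie in pairs or beside tensin genes, which encode focal adhesion proteins. IGFBP2 and IGFBP5 are direct neighbours on chromosome 2, with differences of 0.42 ± 0.20 SE and -0.14 ± 0.27 between EP300 and control cultures on the log2 scale. IGFBP1 and IGFBP3 are direct neighbours on chromosome 7, with differences of -0.31 ± 0.23 SE and -1.28 ± 0.23. TNS3, the neighbour of IGFBP3 on its other side, differed by 0.02 ± 0.43, TNS4, the neighbour of IGFBP4 on chromosome 17, by 0.28 ± 0.25, and TNS2, next but 1 to IGFBP6 on chromosome 12, by -0.25 ± 0.26. None of these 3 tensin genes passed the threshold (limma adjusted p of 0.892 or more), and TNS1, next but 1 to IGFBP5, was not analysed here. The genes were chosen after their values were seen.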
